A study of Rattus norvegicus with 15 samples.

Results

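Proximal tubules isolated from rat kidneys were compared with whole rat kidneys after the same dose of cisplatin, 10 mg/kg, with 3 arrays for each tissue, so that 6 of the 15 arrays of the study carry the comparison. The arrays were chosen by their titles, and no measured value entered the choice. All animals were male Wistar/ST rats, 8 weeks old, given either cisplatin or an equal volume of saline into the peritoneum. The tubules had been isolated under a microscope, while a whole kidney holds every segment and cell type of the organ. Saline-treated tubules and saline-treated whole kidneys, again 3 arrays each, gave the tissue difference without the drug. A further 3 arrays of tubules after 2 mg/kg entered through the joint normalization, the choice of tested probes and the shared estimate of the spread. Digoxigenin-labelled cRNA was hybridised to a 1-colour chemiluminescent array. The time between injection and sampling, and whether tubules or RNA of several animals were pooled, are not given in the sources used here. No label ties an array to an animal of its own, and p-values therefore cover only the spread from array to array, which may be technical.

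The proximal tubule is the part of the nephron that takes back most of the filtered glucose, amino acids, phosphate and bicarbonate, and it is the main site of cisplatin injury in the kidney. Its early segments, S1 and S2, carry the bulk of glucose and bicarbonate transport, and its straight segment, S3, lies in the outer stripe of the medulla and is the classical site of necrosis after cisplatin. A whole kidney also contains glomeruli, vessels, the loop of Henle, distal tubules, collecting ducts and immune cells. In such bulk samples, fewer cells of a type and less RNA per cell cannot be told apart. A level is given below as the log2 of the quantile normalized signal of a probe, and a difference as tubules minus whole kidneys on that scale, with the standard error (SE) of a limma fit over all arrays. A gene is called higher or lower in tubules where the limma p, adjusted over 26601 tested probes by the Benjamini-Hochberg method, is under 0.05.

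The 6 arrays listed between 26207 and 26546 probes, with median signals of 204.3 to 410.9 before normalization. Over 22386 probes with a value on every array, the cisplatin-treated tubules correlated with each other at 0.893 to 0.926 and the cisplatin-treated whole kidneys at 0.882 to 0.904, while a tubule and a whole kidney array correlated at 0.822 to 0.865. The files hold no background or detection measure, so a dim signal is not known to lie above background and every fold is a ratio of signals. A single gene symbol was available for 401 probes, all within a table of 1219 probes that the authors deposited by a rule not given in the sources used here, so the named genes are not a neutral sample of the array.

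After 10 mg/kg, 2813 of 26601 probes (10.6%) differed between tubules and whole kidneys in the limma fit, with 1557 higher (5.85%) and 1256 lower (4.72%) in tubules. Among the 401 named genes 147 differed (36.7%), 86 higher (21.4%) and 61 lower (15.2%), against 31.8% of the authors' table (388 of 1219 probes) and 9.55% of the probes outside it (2425 of 25382). At an unadjusted p under 0.05 the share over all probes was 23.5%. The split between higher and lower depended on the scaling. Of the calls 55.4% were higher with quantile normalization, 69.1% with median centring (1071 higher, 479 lower) and 85% without scaling (1061 higher, 187 lower). The median difference over all probes was -0.01 with quantile normalization and 0.30 without scaling. The 3 arrays of one tissue did not overlap those of the other for 27.9% of probes, 14.1% with tubules higher and 13.8% with tubules lower. Of the probes in the brightest of 4 equal groups 24.8% were called, against 1.22% in the dimmest group. The median residual SD was 0.349 in the brightest group and between 0.715 and 0.814 in the other groups. With only the 6 arrays compared the fit called 977 probes, and without tubule replicate 1 it called 1814.

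**Figure D1:**
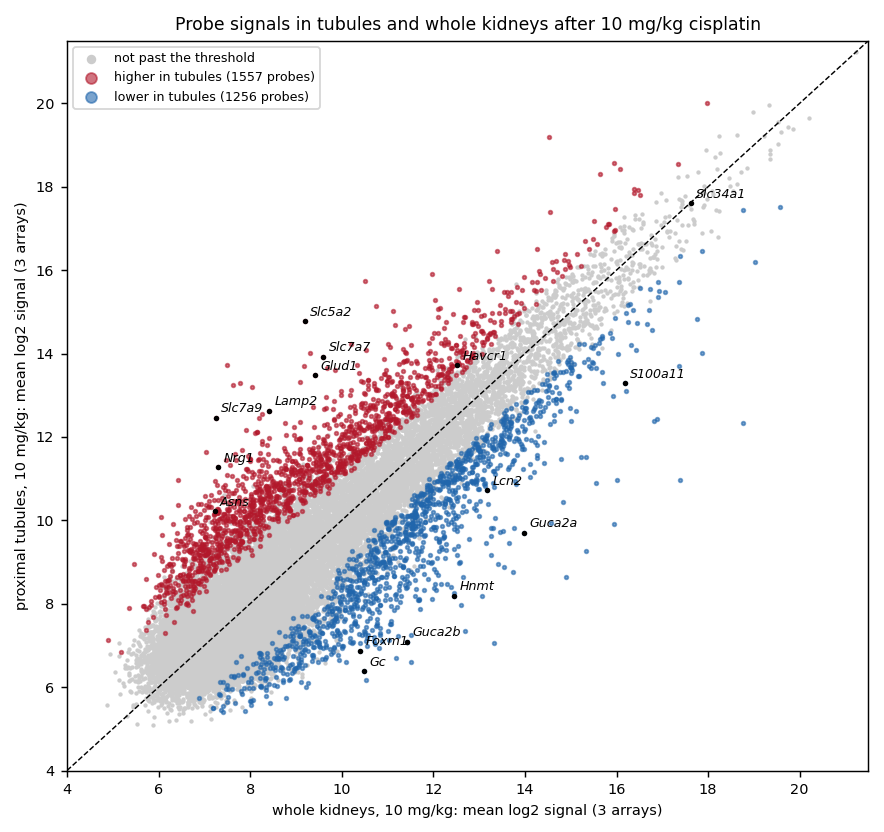
Mean log2 signal of 26601 probes in whole kidneys and in proximal tubules after 10 mg/kg, 3 arrays each, with the line of equal signal. Coloured points are the 1557 probes called higher and the 1256 called lower in tubules, and among the labelled genes Slc5a2 and Slc7a9 lie on the tubule side of the line, Guca2a and Guca2b on the whole kidney side and Slc34a1 on it.

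The 12 largest calls per direction were named only from genes whose tissues did not overlap, which held for 27.9% of all probes. Lack of overlap in these genes was therefore fixed by the naming rule. The largest named differences in favour of tubules were in genes of epithelial transport. Slc5a2 encodes SGLT2, the sodium-glucose cotransporter of the S1 segment. Its log2 signal was 14.90, 14.97 and 14.47 in the 3 tubule arrays after cisplatin and 7.18, 9.54 and 10.85 in the 3 whole kidney arrays. The tubule arrays lay close together and the whole kidney arrays were spread widely, with no overlap. The difference was 5.59 ± 0.69 (SE), a 48.0-fold ratio of signals (limma adjusted p = 0.0003). Slc7a9 encodes the light subunit of the apical exchanger for cystine and dibasic amino acids. It stood at 13.17, 11.92 and 12.29 in tubules and at 7.16, 7.19 and 7.38 in whole kidneys, a difference of 5.22 ± 0.34 (37.2-fold, limma adjusted p = 8.17e-06). The mean whole kidney level lay at percentile 29.5 of all probes and is not known to be above background. Slc3a1, which encodes the heavy subunit of the same exchanger and is named here after its value was seen, had a difference of 0.06 ± 0.37 (limma adjusted p = 0.953, 95% interval -0.73 to 0.85).

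Slc7a7 encodes the light subunit of the basolateral exchanger that passes dibasic amino acids to the blood. Its signal was 13.81, 13.70 and 14.27 in tubules and 9.66, 9.36 and 9.78 in whole kidneys (4.33 ± 0.39, 20.1-fold, limma adjusted p = 3.65e-05). All 3 tubule arrays were above all 3 whole kidney arrays by a margin larger than the spread of either group. Slc12a8, of the cation-chloride cotransporter family, was higher by 4.25 ± 0.38, and Naglt1, a sodium-dependent glucose transporter gene described in rat kidney, by 4.23 ± 0.44.

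Lamp2, which encodes a structural protein of the lysosomal membrane, stood at 13.36, 12.40 and 12.14 in tubules and 8.03, 8.73 and 8.45 in whole kidneys (4.22 ± 0.34, 18.7-fold, limma adjusted p = 3.49e-05). Glud1, the gene of the mitochondrial glutamate dehydrogenase that feeds ammonia formation and gluconeogenesis, stood at 13.74, 13.14 and 13.58 against 8.80, 9.90 and 9.55 (4.07 ± 0.36, 16.8-fold, limma adjusted p = 3.58e-05). Neither gene overlapped between the tissues, as the naming rule required. Nrg1, which encodes neuregulin, a growth factor that binds ErbB receptors, was higher by 3.99 ± 0.49. Abtb2 was higher by 3.61 ± 0.39, the SNARE protein gene Snap23 by 3.56 ± 0.42, the lysosomal chitobiase gene Ctbs by 3.41 ± 0.49 and Epb41l3, which encodes a membrane skeleton protein, by 3.32 ± 0.63. In whole kidneys 4 of these 12 genes lay in the dimmer part of the array, under percentile 50, with Abtb2 lowest at percentile 12.7. All 12 kept their call in every alternative processing that was run.

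The largest named differences against tubules were in the pair Guca2b and Guca2a, which encode uroguanylin and guanylin, peptides that activate guanylate cyclase C and promote salt excretion. Guca2b stood at 7.59, 6.10 and 7.59 in tubules and at 11.34, 11.34 and 11.60 in whole kidneys (-4.33 ± 0.39, limma adjusted p = 3.58e-05). Guca2a stood at 9.73, 9.75 and 9.63 in tubules and at 14.20, 13.99 and 13.75 in whole kidneys (-4.27 ± 0.44, limma adjusted p = 9.94e-05). The arrays of a tissue lay close together, apart from 1 low tubule array for Guca2b. The tissues did not overlap for either gene, which the naming rule required. In the RefSeq gene table of assembly GRCr8 the pair are direct neighbours. Hnmt, which encodes histamine N-methyltransferase, had a difference of -4.26 ± 0.67, and Gc, which encodes the vitamin D binding protein, had -4.11 ± 0.80. The mean tubule level of Gc lay at percentile 5.26 of all probes.

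Foxm1, which encodes a transcription factor of dividing cells, stood at 6.79, 8.13 and 5.71 in tubules and at 10.46, 10.26 and 10.46 in whole kidneys (-3.52 ± 0.63, limma adjusted p = 0.00285). The tubule values were scattered over a low range, with their mean at percentile 18.7, and the whole kidney values were nearly equal. None of the 24 genes listed for the cell cycle had a named probe. Slc6a18, a neutral amino acid transporter gene of the late proximal tubule, had -2.97 ± 0.46, the calcium-binding protein gene S100a11 -2.90 ± 0.44, and the thyroid hormone receptor gene Thrb -2.89 ± 0.42. The epithelial calcium channel gene Trpv6 had -2.76 ± 0.34, Ftcd, which encodes an enzyme of histidine and folate metabolism, -2.75 ± 0.46, the carnosinase gene Cndp1 -2.56 ± 0.67 and the potassium channel subunit gene Kcns2 -2.55 ± 0.48.

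Of these 12 genes 9 kept their call in every alternative that was run. On unscaled signals Ftcd and Kcns2 did not pass (-2.02 and -1.93, limma adjusted p = 0.0678 and 0.0716). In whole kidney replicate 3 Cndp1 lay close to the tubules, with 9.78, 10.09 and 6.99 in whole kidneys against 6.28, 6.43 and 6.47 in tubules. Its call was lost without tubule replicate 1, 2 or 3 and without whole kidney replicate 1 or 2 (between -2.60 and -1.99, limma adjusted p between 0.0573 and 0.0948). A fit restricted to the 6 arrays, or to unscaled signals, ended it too (limma adjusted p = 0.131 and 0.091).

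**Figure D2:**
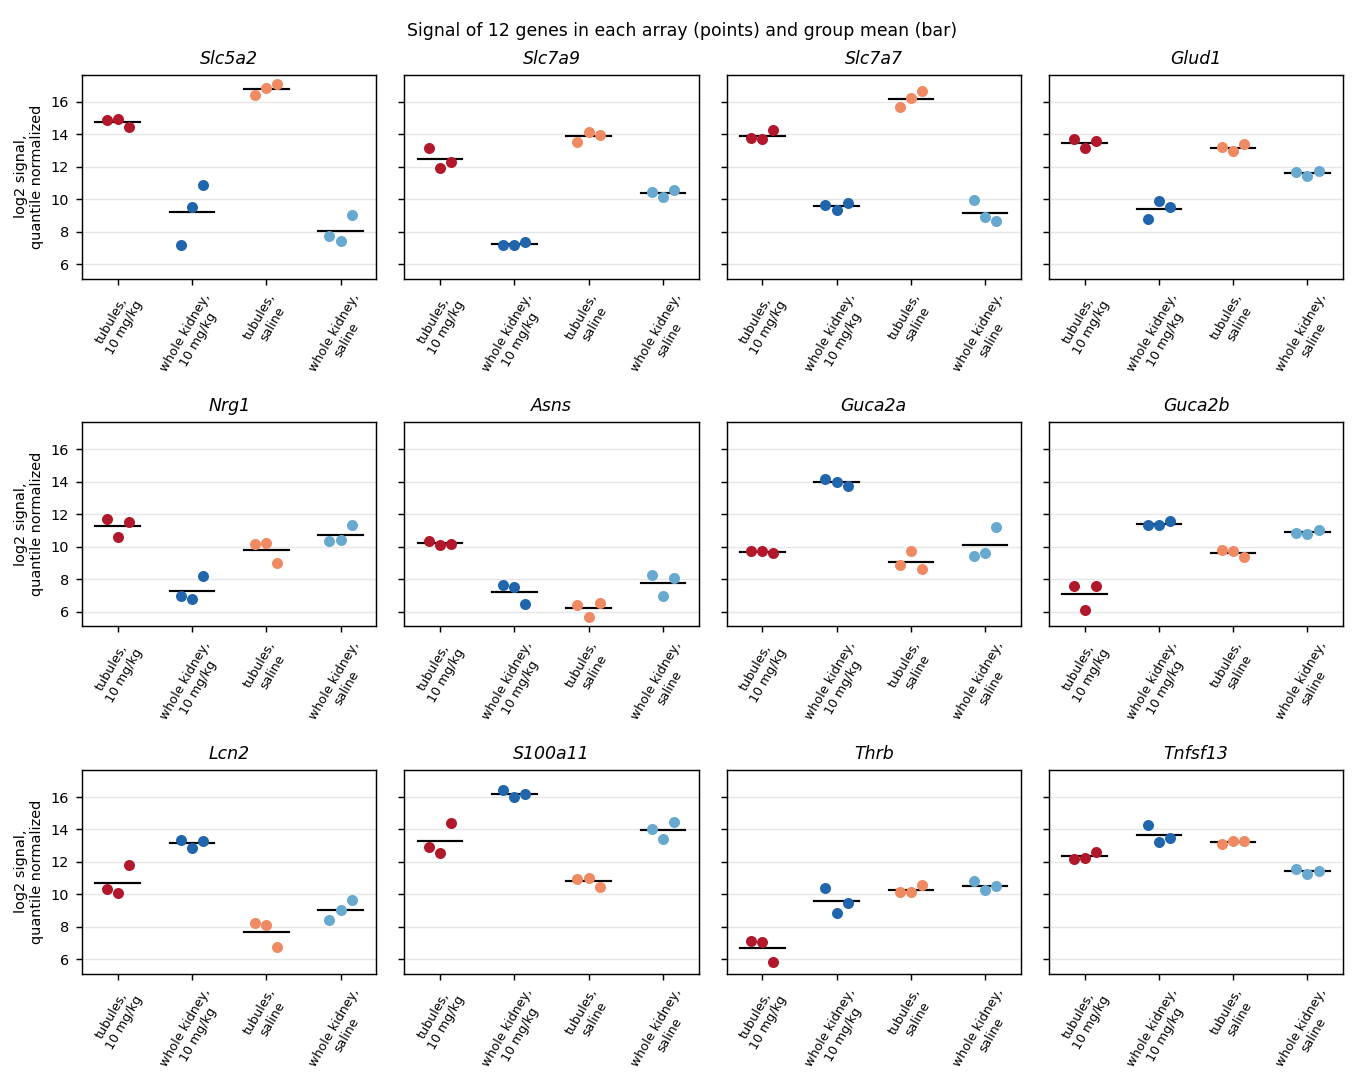
Log2 signal of 12 genes in every array of 4 groups (points, 3 arrays per group) with the group mean as a bar. Slc5a2, Slc7a9, Slc7a7, Glud1, Nrg1 and Asns lie higher in cisplatin-treated tubules than in cisplatin-treated whole kidneys, and Guca2a, Guca2b, Lcn2, S100a11, Thrb and Tnfsf13 lie lower, with no overlap of these groups in any panel. For all of them but Asns, Lcn2 and Tnfsf13, lack of overlap was a condition of naming.

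The labelled tissue was set against segment markers. Their lists were written with earlier results of these data known, so the counts are not an independent check of the label. Of 9 named S1 and S2 markers 6 were higher in cisplatin-treated tubules and 1 was lower, where 21.4% and 15.2% of all named genes were, with a median difference of 1.82 against -0.01 over all probes and 0.24 over the named genes. Beside Slc5a2 they included the basolateral bicarbonate cotransporter gene Slc4a4, at 14.11, 14.11 and 14.46 in tubules and 10.93, 11.13 and 10.98 in whole kidneys (3.21 ± 0.42), the creatine synthesis gene Gatm (3.11 ± 0.47) and the sulfate transporter gene Slc13a1 (2.53 ± 0.37). The exception was Gc, which also stands in the S3 list. After saline 6 of the 9 markers were higher and 1 lower (median 3.19), beside 16.2% and 7.98% of all named genes. The summed signal of the 9 genes ran from 266700 to 329500 in cisplatin-treated tubules and from 202100 to 297900 in cisplatin-treated whole kidneys, against 1137000 to 1766000 and 442400 to 517000 after saline. After cisplatin the summed signals of the tissues overlapped, and after saline they did not. The sum is taken on linear signals, so its brightest gene, Slc34a1, weighs most and the 9 genes do not count equally.

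Slc34a1, which encodes the main phosphate transporter of the brush border and is the brightest gene of that sum, stood at 17.79, 17.39 and 17.61 in tubules and at 17.31, 17.79 and 17.77 in whole kidneys. Its arrays overlapped, at a difference of -0.02 ± 0.29 (95% interval -0.64 to 0.60), and the sign turned under both other scalings (0.07 and 0.42). Slc22a6, the gene of the organic anion transporter OAT1, had -0.54 ± 0.40 (limma adjusted p = 0.463), and 0.0024 without scaling.

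Of 6 named S3 markers 2 were lower in tubules and 0 were higher (median difference -1.27), beside 15.2% and 21.4% of all named genes. At an unadjusted p under 0.05 these counts were 4 and 0. Beside Gc the lower gene was Slc1a1, a glutamate and aspartate transporter gene, at 11.30, 11.42 and 11.41 in tubules and 12.91, 12.91 and 11.97 in whole kidneys (-1.22 ± 0.34, limma adjusted p = 0.0336). The call of Slc1a1 was lost under both other scalings, with the values of the authors' table and in a fit of the 6 arrays alone. The same held without tubule replicate 1, 2 or 3 or whole kidney replicate 1 or 2 (between -1.24 and -1.07, limma adjusted p between 0.0660 and 0.109). Slc7a12, an amino acid transporter gene, had -1.47 ± 0.59 and the organic anion transporter gene Slc22a7 -1.31 ± 0.55, neither past the threshold. After saline 3 of the 6 were lower and 0 higher (median -2.21), beside 7.98% and 16.2% of all named genes.

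Markers of other cell types were sparsely covered. Of 22 leukocyte markers 2 had a named probe, the complement genes C1qa and C1qc of resident macrophages. C1qa stood at 12.66, 13.80 and 12.67 in tubules and at 13.23, 12.71 and 12.55 in whole kidneys, a difference of 0.21 ± 0.40 (95% interval -0.65 to 1.08), and C1qc had 0.20 ± 0.43. The tissues overlapped for both genes, and 0 passed in the limma fit, also at an unadjusted p under 0.05. The summed signal of C1qa and C1qc ran from 10150 to 21610 in cisplatin-treated tubules, from 9986 to 14640 in cisplatin-treated whole kidneys, from 4043 to 9330 in saline tubules and from 3481 to 5226 in saline whole kidneys. Without tubule replicate 2, the highest array for both genes, their differences turned sign (-0.16 and -0.07). Of 12 podocyte and mesangial markers Actn4 alone had a named probe, with 1.45 ± 0.74 (limma adjusted p = 0.264; 0.86 without tubule replicate 3, and 1.68 with limma adjusted p = 0.0487 in the authors' table), and of 19 collecting duct markers Guca2a alone. Other markers of these lists, and those of endothelium, stroma, the loop of Henle, the distal tubule and red cells, were not analysed here. What part other cell types have in the differences was not tested.

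The list of carriers and of the brush border had 20 named genes, of which 8 were higher and 3 lower in cisplatin-treated tubules (median difference 0.87), beside 21.4% and 15.2% of all named genes. The 8 serve glucose, amino acid, sulfate, phosphate, bicarbonate and folate transport and endocytosis. Beside Slc5a2, Slc7a9, Slc7a7, Slc4a4 and Slc13a1 they were the endocytic receptor gene Cubn (1.73), the phosphate transporter gene Slc34a3 (1.46) and the folate receptor gene Folr1 (1.31). The 3 lower genes were Slc6a18, the aminopeptidase gene Anpep (-2.52) and the inositol oxygenase gene Miox (-1.25). Cubn, Slc34a3, Folr1, Anpep and Miox complete these counts and were named after their values were seen. No alternative was run for these genes. After saline, where 16.2% of the named genes were called higher and 7.98% lower, this list also had 8 higher and 3 lower. They were not all the same genes. Cubn, Folr1 and Miox had 0.39, 0.51 and -0.03 after saline. Slc34a1 and Slc7a12, not past the threshold after the drug, had 1.28 and -3.86. Of 4 organic ion transporter genes 1 was higher, Slc22a5, which encodes the carnitine transporter OCTN2. It stood at 13.63, 13.53 and 13.87 against 11.82, 11.95 and 12.06 (1.74 ± 0.27, limma adjusted p = 0.00115). Slc22a25, of the same family, had 1.03 ± 0.53, and without tubule replicate 2 it passed the threshold (1.82, limma adjusted p = 0.00822); leaving out any 1 of the 6 arrays gave values between 0.61 and 1.82.

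The metabolic lists had few calls each, to be read beside the 21.4% of all named genes called higher and the 15.2% called lower. Of 6 gluconeogenesis genes 2 were higher and 0 lower (median 1.13), with 3 and 1 at an unadjusted p under 0.05. The 2 called were Glud1 and Fbp1, the fructose bisphosphatase gene, which stood at 15.08, 14.01 and 14.76 against 11.90, 12.53 and 12.29 (2.38 ± 0.33, limma adjusted p = 0.000619). The glucose 6-phosphatase gene G6pc1 had 1.82 ± 0.61 (limma adjusted p = 0.0765) and passed the threshold without tubule replicate 2 (2.56, limma adjusted p = 0.0106). Leaving out other arrays gave down to 1.26, without whole kidney replicate 1 (limma adjusted p = 0.254). The pyruvate carboxylase gene Pc had -1.24 ± 0.45. Of 8 genes of fatty acid uptake and oxidation 3 were higher and 0 lower (median 0.82), with the same counts at an unadjusted p under 0.05. Slc25a20, the gene of the mitochondrial carnitine-acylcarnitine carrier, had 2.81 ± 0.52, the very-long-chain acyl-CoA dehydrogenase gene Acadvl 2.23 ± 0.43 and the fatty acid transport protein gene Slc27a2 1.11 ± 0.31. The call of Slc27a2 was lost without tubule replicate 1, 2 or 3 or whole kidney replicate 1 or 2 (between 0.92 and 1.197, limma adjusted p between 0.0568 and 0.116), under both other scalings and in a fit of the 6 arrays alone. Cyp4a8, a fatty acid hydroxylase gene, had 0.99 ± 0.49, and 1.56 (limma adjusted p = 0.0401) without tubule replicate 2 but 0.65 (limma adjusted p = 0.515) without tubule replicate 3.

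Of 7 Nrf2 and glutathione genes 2 were higher and 0 lower (median 0.17), near the 21.4% called higher over all named genes, with 3 and 0 at an unadjusted p under 0.05. Ugdh, the gene of the UDP-glucose dehydrogenase that supplies glucuronidation, stood at 14.93, 14.45 and 14.60 in tubules and 11.57, 11.58 and 11.25 in whole kidneys (3.19 ± 0.30, 9.14-fold, limma adjusted p = 4.58e-05). The glutathione reductase gene Gsr had 2.60 ± 0.47, which did not pass in a fit of the 6 arrays alone (limma adjusted p = 0.06). Gstt2, a glutathione transferase gene, had 1.23 ± 0.43, with 1.64 (limma adjusted p = 0.0277) without tubule replicate 2 but 0.87 (limma adjusted p = 0.279) without whole kidney replicate 1. The Nrf2 target Osgin1 had -1.08 ± 0.56.

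Of 13 genes of amino acid and amine metabolism 3 were higher and 3 lower (median 0.84), near the 21.4% and 15.2% of all named genes. The higher ones were the dopa decarboxylase gene Ddc (3.29 ± 0.48), Gatm, and Fah of tyrosine breakdown (1.09). The lower ones were Hnmt, the aminoacylase gene Acy1 (-2.21 ± 0.40) and the D-amino acid oxidase gene Dao (-1.70). Fah and Dao were named after their values were seen, and no alternative was run for them. On unscaled signals Acy1 did not pass (-1.60, limma adjusted p = 0.176). Of 4 genes of mitochondrial respiration 0 passed the threshold in the limma fit, with 1 at an unadjusted p under 0.05. Ndufs1 had 0.73 ± 0.31, Abcb10 0.59 ± 0.45, Aifm1 -0.54 ± 0.30 and Ndufv1 -0.23 ± 0.29. Ndufs1 passed with an intensity trend and a robust prior (limma adjusted p = 0.0305). Abcb10 lay between 0.18 and 0.91 when 1 of the 6 arrays was left out. The sign turned without scaling for Aifm1 and under both other scalings for Ndufv1.

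Of 9 named tubular injury markers 4 were lower in cisplatin-treated tubules than in cisplatin-treated whole kidneys and 0 were higher, where 15.2% and 21.4% of all named genes were, with a median difference of -1.42. At an unadjusted p under 0.05 these counts were 7 and 1. Lcn2, which encodes NGAL, a secreted protein that binds iron-carrying siderophores, stood at 10.31, 10.06 and 11.79 in tubules and at 13.35, 12.87 and 13.32 in whole kidneys (-2.46 ± 0.51, limma adjusted p = 0.00656). S100a11 stood at 12.93, 12.53 and 14.39 against 16.41, 15.98 and 16.16 (limma adjusted p = 0.000948). In both genes tubule replicate 3 was the highest tubule array and still lay below every whole kidney array. S100a6, of the same calcium-binding family, had -2.40 ± 0.51, and Anxa1, the annexin A1 gene, -2.29 ± 0.42. Without scaling Lcn2, S100a6 and Anxa1 kept their direction and lost their calls (limma adjusted p = 0.116, 0.102 and 0.174). In a fit of the 6 arrays alone Lcn2 had a limma adjusted p of 0.0522. After saline 4 of the 9 markers were lower and 0 higher (median -1.95), beside 7.98% and 16.2% of all named genes. The saline differences of S100a11, S100a6, Lcn2 and Anxa1 were -3.16, -2.82, -1.33 and -0.64.

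Havcr1 encodes KIM-1, a receptor on injured proximal tubule cells. It stood at 13.82, 13.34 and 14.004 in tubules and at 12.85, 12.63 and 12.10 in whole kidneys, so all 3 tubule arrays were above all 3 whole kidney arrays. After saline its mean was 8.78 ± 0.78 (SD, n = 3) in tubules and 8.86 ± 0.40 in whole kidneys. The tissue difference of 1.196 ± 0.41 after cisplatin did not pass the threshold (limma adjusted p = 0.0813, 95% interval 0.32 to 2.07). It passed with an intensity trend and a robust prior (limma adjusted p = 0.0319). With an offset added to the signals and with the values of the authors' table it passed too (limma adjusted p = 0.0469 and 0.0152). Spp1, which encodes osteopontin, stood at 15.21, 17.33 and 17.86 in tubules and 18.63, 18.11 and 17.94 in whole kidneys (-1.42 ± 0.58, limma adjusted p = 0.15). Tubule replicate 1 was far below the other tubule arrays, and all 3 lay below the whole kidney arrays; without it the difference of Spp1 was -0.63.

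Among 3 p53 targets 1 was higher in tubules and 0 were lower, beside 21.4% and 15.2% of all named genes. It was Cdkn1a, the gene of the cell cycle inhibitor p21, at 11.55, 11.55 and 11.80 against 8.52, 10.18 and 9.73 (2.16 ± 0.57, 4.46-fold, limma adjusted p = 0.0269). Its call was lost without tubule replicate 1, 2 or 3 or whole kidney replicate 1 or 3 (between 1.68 and 2.28, limma adjusted p between 0.0515 and 0.107) and in a fit of the 6 arrays alone (limma adjusted p = 0.0595). Plk2, a p53-responsive kinase gene, had 0.63 ± 0.56 and Cd82 -0.74 ± 0.29, neither past the threshold. Cd82 passed with an intensity trend and a robust prior (limma adjusted p = 0.0311). It shrank to -0.42 with median centring and -0.07 without scaling. Of 3 chemokine genes 0 passed in the limma fit, with 2 at an unadjusted p under 0.05. Ccl2, whose product attracts monocytes, had 0.24 ± 0.81 (limma adjusted p = 0.909), the neutrophil attractant Cxcl2 1.51 ± 0.64 and Ccl20 1.74 ± 0.66. The file of whole kidney replicate 1 held no value for Ccl20, so its fit rests on 2 whole kidney arrays there. Ccl20 passed with an offset added and with the values of the authors' table (limma adjusted p = 0.0475 and 0.0238), and Cxcl2 with the latter (limma adjusted p = 0.0328).

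Of 4 interferon-stimulated genes 1 was higher in tubules and 0 were lower, near the 21.4% and 15.2% of all named genes. It was Rsad2, which encodes the antiviral enzyme viperin, at 11.35, 11.77 and 11.73 against 9.05, 9.70 and 8.14 (2.65 ± 0.56, 6.30-fold, limma adjusted p = 0.00711). Isg20 had -1.09 ± 0.43, Oasl -1.07 ± 0.47 and the transcription factor gene Irf1 0.84 ± 0.36. Of 3 immediate early genes 1 was lower in tubules and 0 were higher, to be read beside the same shares. It was Ier3, at 13.45, 13.51 and 14.12 against 15.29, 15.40 and 15.53 (-1.72 ± 0.37, limma adjusted p = 0.00812). Ier3 did not pass with median centring or on unscaled signals (limma adjusted p = 0.0845 and 0.417). The transcription factor genes Klf6 and Egr2 had 0.73 ± 0.30 and -0.46 ± 0.72, and Egr2 turned sign without scaling.

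Of 7 genes of hormone receptors and axes 2 were lower and 0 higher (median -0.91), beside 15.2% and 21.4% of all named genes, with 3 and 0 at an unadjusted p under 0.05. Thrb stood at 7.15, 7.04 and 5.85 in tubules and 10.39, 8.85 and 9.48 in whole kidneys (limma adjusted p = 0.000816), with the tubule mean at percentile 12.03. The prolactin receptor gene Prlr had -1.66 ± 0.42, Pth1r, the receptor gene for parathyroid hormone, -1.001 ± 0.37 and Ghr, that for growth hormone, 1.43 ± 0.67. Ghr was 0.42 without whole kidney replicate 1 and 2.14 without whole kidney replicate 3. Prlr lost its call without tubule replicate 1 or 3 or whole kidney replicate 2 (between -1.72 and -1.35, limma adjusted p between 0.0529 and 0.0838), under both other scalings and in a fit of the 6 arrays alone. Of 2 apoptosis regulators the TNF receptor gene Tnfrsf1a was higher (0.97 ± 0.28, limma adjusted p = 0.0408). It lost its call without tubule replicate 2 or 3 or whole kidney replicate 1, 2 or 3 (between 0.87 and 1.06, limma adjusted p between 0.0540 and 0.108), under both other scalings, with array weights and in a fit of the 6 arrays alone.

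**Figure D3:**
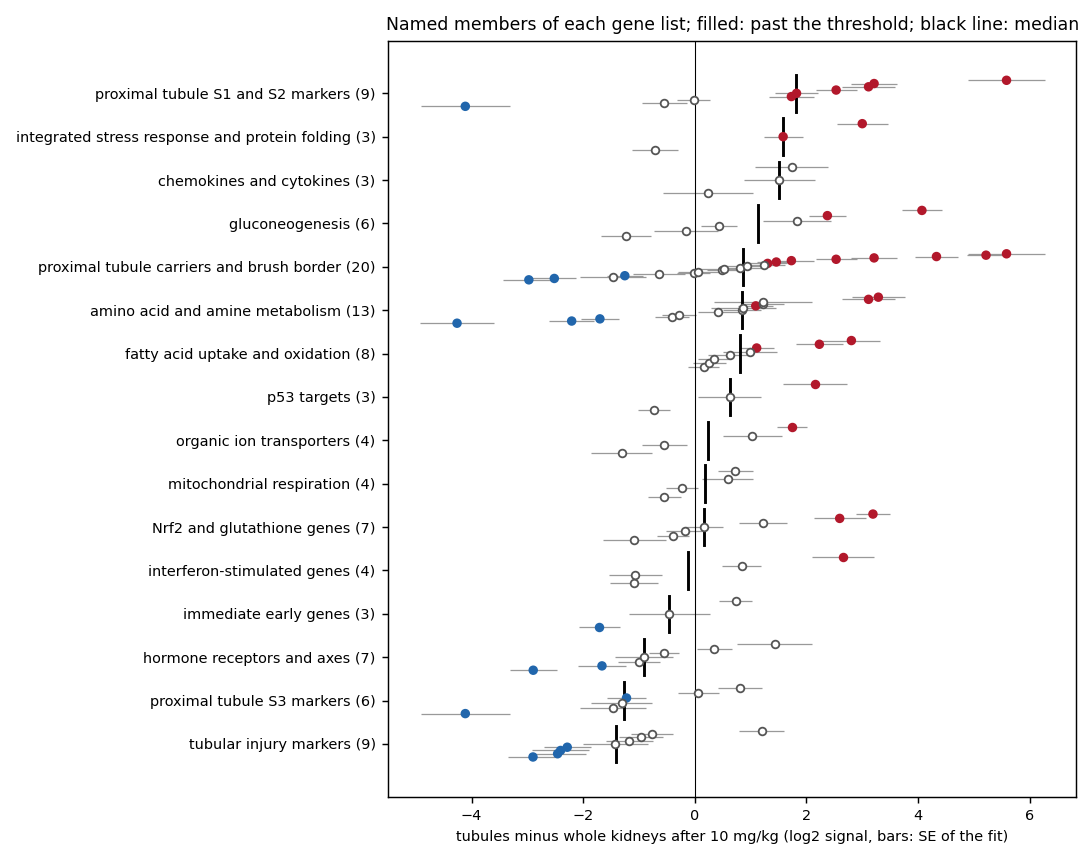
Difference between tubules and whole kidneys after 10 mg/kg (log2 signal, with the SE of the fit) for the named members of 16 gene lists. Filled points passed the threshold, open points did not, and the black line is the median of each list, which runs from -1.42 for the injury markers to 1.82 for the S1 and S2 markers.

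The tissue difference after the drug was set against that after saline, which rests on 6 other arrays. Both come from the same normalization and fit and share the estimate of the spread of each probe, so their calls are not independent. After saline 954 of 26601 probes (3.59%) differed in the same limma fit, 565 higher (2.12%) and 389 lower (1.46%). Of these, 541 were also called after the drug in the same direction, 307 higher and 234 lower, which is 56.7% of the saline calls and 19.2% of the drug calls, and 6 were called in opposite directions. Among named genes 2 were called in opposite directions, Tnfsf13 and Xrcc4, a DNA repair gene named here after its value was seen (-1.69 after the drug, 2.32 after saline). Its tubule mean after the drug was among the dimmest, at percentile 0.0996, and no alternative was run for this gene. Across all probes the differences correlated at r = 0.442 and rho = 0.373, a description over probes that share arrays and are not independent. Of the 12 largest higher genes 9 were also called higher after saline, and of the 12 largest lower genes 5 were also called lower. Over all named genes called after the drug, these shares were 43% of the higher and 24.6% of the lower ones.

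A probe called after the drug and not after saline is not thereby shown to differ between the conditions. That difference was tested as an interaction, and the limma fit called 10 of 26601 probes (0.0376%), 5 in each direction (0.0188% each), with 2867 (10.8%) at an unadjusted p under 0.05. The count was 305 with an intensity trend and a robust prior, and 0 with only the arrays of the 4 groups. Of the 10 probes 3 had a gene name (0.748% of the named genes), Nrg1 and Asns with a positive value (0.499%) and Tnfsf13 with a negative one (0.249%). Asns encodes asparagine synthetase, a target of the integrated stress response. It stood at 10.36, 10.12 and 10.20 in cisplatin-treated tubules and 7.66, 7.54 and 6.47 in cisplatin-treated whole kidneys, and after saline at 6.41, 5.68 and 6.52 in tubules and 8.26, 6.97 and 8.08 in whole kidneys. Tubules were above whole kidneys in every array after the drug (3.001 ± 0.45) and below them in every array after saline (-1.57 ± 0.45), and the tissue differences differed by 4.57 ± 0.64 (limma adjusted p = 0.028). The cisplatin-treated whole kidneys lay at percentile 29.0, and the mean signal of the saline tubules was lower still, so neither level is known to be above background. Psat1, a serine synthesis gene of the same list, was higher in tubules after the drug (1.58 ± 0.35) and after saline (1.51 ± 0.35), and did not pass after the drug in a fit of the 6 arrays alone (limma adjusted p = 0.0973). The chaperone gene Hyou1 had -0.71 ± 0.42 after the drug.

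Nrg1 stood at 11.69, 10.60 and 11.55 in cisplatin-treated tubules and 6.94, 6.75 and 8.18 in cisplatin-treated whole kidneys, and after saline at 10.15, 10.23 and 8.97 against 10.38, 10.39 and 11.34. The cisplatin-treated whole kidneys were the low group, at percentile 31.2, and the tissue differences, 3.99 and -0.92, differed by 4.91 ± 0.70 (limma adjusted p = 0.028). Tnfsf13, which encodes the TNF family ligand APRIL, stood at 12.17, 12.22 and 12.62 in cisplatin-treated tubules and 14.27, 13.25 and 13.48 in cisplatin-treated whole kidneys, and after saline at 13.11, 13.28 and 13.30 against 11.59, 11.27 and 11.42. Its order turned between the conditions, with -1.34 ± 0.33 after the drug and 1.81 ± 0.33 after saline, and the differences differed by -3.14 ± 0.46 (limma adjusted p = 0.0313).

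These 3 interaction calls did not hold in many alternatives. Over 12 fits that each left out 1 array of the 4 groups, Asns lost its call in 7, Nrg1 in 9 and Tnfsf13 in 11, with limma adjusted p up to 0.0945, 0.0991 and 0.107. The values stayed between 4.19 and 4.97, between 4.50 and 5.36 and between -3.35 and -2.84. All 3 calls were lost without tubule replicate 1 or 3 of the cisplatin group, without any 1 of the saline tubule arrays, and without saline whole kidney replicate 1 or 3. They were also lost without scaling and with only the arrays of the 4 groups. The call of Tnfsf13 in the cisplatin comparison itself was lost without tubule replicate 1 or 2 or whole kidney replicate 1 (between -1.28 and -1.03, limma adjusted p between 0.0502 and 0.0724), under both other scalings and in a fit of the 6 arrays alone.

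Slc5a2 and Slc7a7 had the widest tissue differences after saline among the 12 largest higher genes, at 8.74 ± 0.69 and 7.02 ± 0.39. The interaction values were -3.15 ± 0.98 and -2.69 ± 0.56 and did not pass the threshold (limma adjusted p = 0.261 and 0.0969). For Glud1 the interaction was 2.50 ± 0.51 (limma adjusted p = 0.0969), for Guca2b -3.07 ± 0.55 and for Guca2a -3.27 ± 0.62 (limma adjusted p = 0.0798 and 0.0844), again not past the threshold. Guca2a had a mean level of 13.98 ± 0.23 (SD, n = 3) in cisplatin-treated whole kidneys and 10.08 ± 0.98 in saline whole kidneys, against 9.71 ± 0.06 and 9.08 ± 0.58 in the tubules, so that its cisplatin-treated whole kidneys stood apart from the other groups. Guca2b had 7.09 ± 0.86 in cisplatin-treated tubules and 9.64 ± 0.25 in saline tubules, against 11.43 ± 0.15 and 10.91 ± 0.11 in whole kidneys, and there the cisplatin-treated tubules stood apart. For Slc34a1 the tissue difference was 1.28 after saline (limma adjusted p = 0.0248) and -0.02 after the drug, and the interaction of -1.30 ± 0.41 did not pass (limma adjusted p = 0.267).

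**Figure D4:**
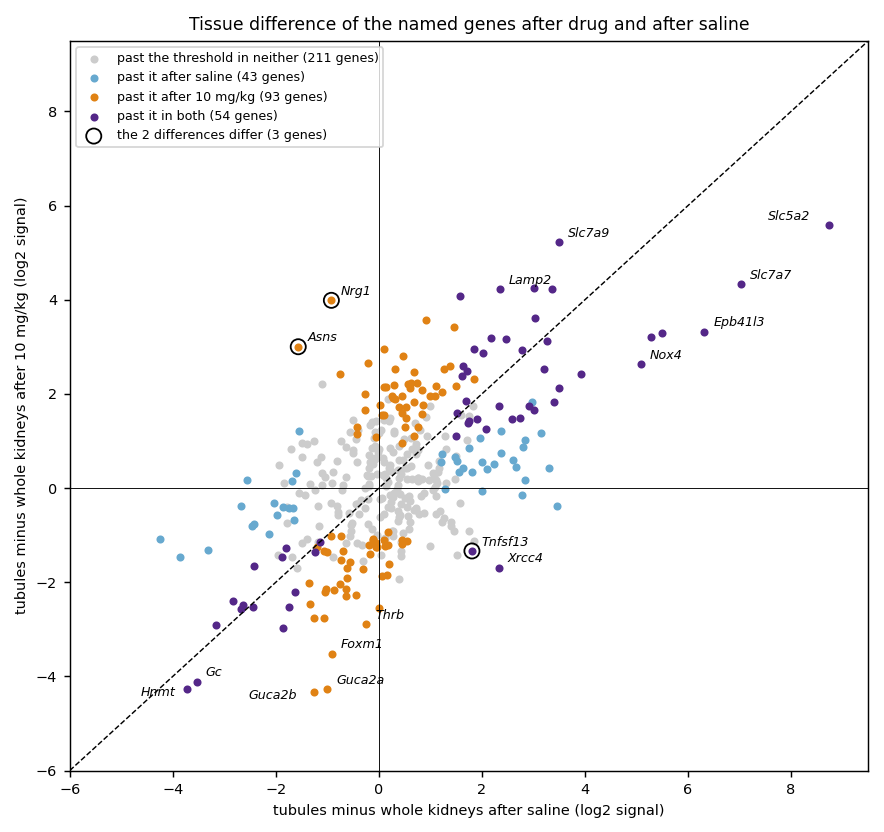
Tissue difference of the 401 named genes after saline and after 10 mg/kg, both on the log2 scale, with the line of equal differences. Slc5a2, Slc7a7 and Epb41l3 had the larger difference after saline and Slc7a9 and Lamp2 after the drug, and Nrg1, Asns and Tnfsf13 passed the test of the difference between the conditions.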

How the data were processed

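Each array's deposited intensity, 1 linear signal per probe and unscaled as the array medians show, was made by the authors with a 1-colour chemiluminescent array, per the labels' protocols; scanner software and background correction are not given in the sources used here. In addition, the authors' deposited table of 1219 probes holds a ratio, each signal divided by a constant for its array, as tested on the files. Here log2 intensities of 15 arrays in 5 groups were quantile normalized and fitted with limma 3.58.1 (R 4.3.3; 10 residual degrees of freedom), over the 26601 probes that had 2 or more values per group, leaving out 256. P-values were adjusted by Benjamini-Hochberg. The number of arrays limits the precision.

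Named genes have 1 symbol in the platform annotation (401, all found in RefSeq GRCr8). Named were the 12 largest non-overlapping calls per direction, up to 4 members of each of 25 lists by adjusted p, up to 6 interaction calls and 10 genes fixed by name. Members and lists were chosen with earlier results of these data known. Alternatives changed the scaling, arrays, prior, probes and offset.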

Additional observations from a re-analysis of the deposited data

Results flagged for a closer look

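For Nrg1, Asns and Tnfsf13 the difference between tubules and whole kidneys after cisplatin differed from that after saline in a test of the difference itself. The values were 4.91, 4.57 and -3.14 on the log2 scale, with limma adjusted p of 0.028, 0.028 and 0.0313. Of 22 alternatives the calls were lost in 13 for Nrg1, 10 for Asns and 15 for Tnfsf13, among them the fit of the 4 groups alone and the replicate block. All 3 tubule arrays lay above all 3 whole kidney arrays after cisplatin for Nrg1 and Asns, and below them for Tnfsf13. Pc, the pyruvate carboxylase gene, was flagged by a rule that asked for tubule arrays on opposite sides after cisplatin and after saline. That pattern was thus the rule itself, and its share of all probes was not counted. The tubule arrays of Pc all lay below the whole kidney arrays after cisplatin and above them after saline (differences -1.24 and 0.997). The signal was 10.82, 10.80 and 11.81 in cisplatin-treated tubules and 11.95, 12.63 and 12.56 in cisplatin-treated whole kidneys, and after saline 14.46, 14.54 and 15.81 against 13.85, 14.19 and 13.78. The tissue differences of Pc differed by -2.24, which did not pass the threshold (limma adjusted p = 0.212).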

How the results depend on the processing

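Of the 147 named genes called after cisplatin, only the 48 picked by the naming rule were run through the alternatives. Of these 48 calls 32 kept their direction and their side of the threshold in every alternative run. Without scaling 13 were lost, 10 with only the 6 arrays compared and 6 with median centring. Of 1422 alternative values for 83 single-gene results, 1284 kept direction and side, 102 fell below the threshold, 22 passed it and 14 turned sign. Those that passed include Pc and Pth1r with an intensity trend and a robust prior (limma adjusted p = 0.019 and 0.0185). Irf1 and Spp1 passed with the authors' table (limma adjusted p = 0.0374 and 0.0341). None that turned sign was a called gene. The count of called probes after cisplatin, 2813, was 1550 with median centring, 1248 without scaling, 977 with only the 6 arrays and 450 of 1219 with the values of the authors' table, and 1814 to 3041 when an array was left out; the highest, without saline whole kidney replicate 3, was chosen after seeing the data because that array correlated least with the others. The saline count, 954, was 293 with only its own arrays, 1643 with an intensity trend and robust prior, 406 of 1219 with the authors' table and 567 to 794 with an array left out; 94.7% of its calls were higher without scaling, against 59.2%, and the median of all probes was then 0.61. The interaction count, 10, was 2 with median centring, 2 without scaling, 0 with only the arrays of the 4 groups, 16 with array weights, 305 with an intensity trend and robust prior, 29 without the dimmest of 4 equal groups of probes, 35 with an offset, 176 of 1219 with the authors' table and 0 to 16 with an array left out. The cause of these changes was not tested.

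Differences that turned sign, none past the threshold, were those of Slc34a1 (0.072 with median centring, 0.42 without scaling, 0.074 with the authors' table, -0.18 to 0.080 leaving out an array), Ndufv1 (0.013, 0.36 and 0.014 in the first 3 of these settings), Aifm1 (0.12 without scaling), Egr2 (0.057 without scaling), Slc22a6 (0.0024 without scaling), C1qa and C1qc (-0.16 to 0.41 and -0.074 to 0.43 leaving out an array, negative without tubule replicate 2). Same-numbered arrays did not deviate together (r between -0.0507 and 0.0479), so the numbers were not taken to pair the samples. With the replicate number as a block the counts were 2511 after cisplatin, 806 after saline and 0 for the interaction. The block ended the named calls of Slc27a2 and Tnfrsf1a (limma adjusted p = 0.0528 and 0.0722) and the interaction calls of Asns, Nrg1 and Tnfsf13 (0.0528, 0.0863 and 0.0863). Signals carry no background measure, so what dim probes allow is not known, and 1.22% of the dimmest group were called.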
